A study of Caenorhabditis elegans with 2 samples.

Results

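The ribosomal protein genes of *Caenorhabditis elegans* were taken as all protein-coding genes on the nuclear chromosomes whose names begin with rpl- (large subunit) or rps- (small subunit). This name rule found 78 genes among 19973, 47 named rpl- and 31 named rps-. They are called large and small subunit genes here by name alone, and the product of each was not checked. Their promoters were examined in a ChIP-seq series on ZTF-23, a zinc finger protein, in whole mid-stage embryos. All samples came from strain RW12279, whose allele st12279 adds TY1, EGFP and 3xFLAG to the ztf-23 gene by CRISPR; embryos were obtained by bleaching, at an age the labels give as 1.5 hours. Chromatin was sonicated to a labelled size range of 200 to 800 bp and precipitated through the GFP tag in 2 biological replicates of this 1 group. No other genotype, stage or control library was analysed here, so every value is an occupancy within this strain, and a whole embryo averages over all of its cell types.

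Each ribosome is built from a large and a small subunit, and each subunit from ribosomal RNA and many small, mostly basic proteins that are needed in near-equal amounts. Genes for ribosomal proteins are scattered over the genome, are among the most highly transcribed genes of growing cells, and are therefore a common case for asking whether many promoters share a regulator. Several of them in the worm lie head to head with another gene, carry a small nucleolar RNA (snoRNA, a guide for chemical modification of ribosomal RNA) in an intron, or exist beside a similarly named copy.

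The DNA under the peaks is shown first, because many of these genes carry the same short words there. A window reached 50 bp to either side of each summit, the base of highest signal in a peak, and is printed 5′ to 3′ on the strand of the gene, with coordinates on WBcel235 (the assembly also called ce11). Capitals mark 4 words of 8 bases, searched on both strands: TACGGTAA (word A), ATACTCAG (word B), AACGAGTG (word C) and GCGAGACC (word D), whose reverse complements are TTACCGTA, CTGAGTAT, CACTCGTT and GGTCTCGC. The first 3 windows hold word A and belong to strong peaks: rpl-3 (chrIII:3867535-3867635, plus strand), rpl-20 (chrIV:4750027-4750127, minus strand) and rps-1 (chrIII:4475609-4475709, plus strand).
rpl-3: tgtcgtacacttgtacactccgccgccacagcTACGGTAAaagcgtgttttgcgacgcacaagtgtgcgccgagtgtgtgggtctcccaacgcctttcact
rpl-20: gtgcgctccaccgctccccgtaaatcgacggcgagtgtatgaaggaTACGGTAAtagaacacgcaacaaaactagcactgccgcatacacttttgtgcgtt
rps-1: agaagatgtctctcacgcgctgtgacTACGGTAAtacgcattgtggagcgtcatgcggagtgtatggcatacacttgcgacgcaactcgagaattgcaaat

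In the next 3 windows words A and C abut, so that the capitals form 1 run of 16 bases; the run of rps-23 is the reverse complement of the other pair. They are rps-23 (chrIV:12391260-12391360, minus strand), rpl-11.2 (chrX:2242945-2243045, minus strand) and rpl-34 (chrIV:12268498-12268598, plus strand).
rps-23: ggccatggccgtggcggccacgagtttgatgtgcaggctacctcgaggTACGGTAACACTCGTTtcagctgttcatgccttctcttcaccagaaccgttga
rpl-11.2: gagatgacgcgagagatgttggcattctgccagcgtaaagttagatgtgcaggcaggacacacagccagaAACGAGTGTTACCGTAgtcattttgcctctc
rpl-34: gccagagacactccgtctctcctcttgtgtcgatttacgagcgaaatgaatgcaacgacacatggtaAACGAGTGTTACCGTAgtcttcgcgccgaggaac

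Word B marks another set of windows, and the bases beside it repeat as well. They are rpl-7A (chrIV:4390619-4390719, minus strand), rps-22 (chrIII:1950371-1950471, plus strand), rpl-39, whose peak is shared with rps-30 (chrV:7776304-7776404, minus strand), and rpl-6 (chrIII:7208067-7208167, plus strand), which holds words C, D and B in turn.
rpl-7A: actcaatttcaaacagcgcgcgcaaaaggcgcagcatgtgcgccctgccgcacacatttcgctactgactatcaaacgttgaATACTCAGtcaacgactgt
rps-22: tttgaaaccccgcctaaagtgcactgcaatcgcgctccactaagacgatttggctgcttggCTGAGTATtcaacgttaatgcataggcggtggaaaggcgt
rpl-39: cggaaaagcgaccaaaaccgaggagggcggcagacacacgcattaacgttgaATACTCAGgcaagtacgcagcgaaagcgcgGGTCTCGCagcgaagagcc
rpl-6: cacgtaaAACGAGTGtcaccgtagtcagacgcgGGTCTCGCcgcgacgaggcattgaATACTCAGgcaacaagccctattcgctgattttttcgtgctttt

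The last pair shows strong peaks whose windows hold none of the words: rpl-15 (chrIV:654868-654968, minus strand) and rps-24 (chrIV:385464-385564, plus strand). In the rps-24 window CCCCTTTT stands 5 times, more copies of 1 word than in any other member window; 119 of the 2174 windows of other peaks (5.47%) hold some word as often.
rpl-15: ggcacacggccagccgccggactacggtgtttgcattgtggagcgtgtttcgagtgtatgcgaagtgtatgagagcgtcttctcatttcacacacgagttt
rps-24: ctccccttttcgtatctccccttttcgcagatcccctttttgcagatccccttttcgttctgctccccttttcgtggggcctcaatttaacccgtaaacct

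More than 1 in every 2 ribosomal protein genes had a ZTF-23 peak upstream. Counting a gene as having a peak when the summit of a peak in the authors' conservative combined list lay within 500 bp of its annotated start, 42 of 78 genes had one (53.8%, exact 95% interval 42.2 to 65.2%). Among all 19973 protein-coding genes 1057 had one, a background of 5.29%, and among the 19895 genes outside the family the share was 5.10%. The members' share therefore stood far above the background of the same list. Intervals here are Clopper-Pearson intervals, which cover counting error only, and the read depth behind the lists is unknown.

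Genes of both subunits had peaks. One was found at 26 of 47 large subunit genes (55.3%, interval 40.1 to 69.8%) and at 16 of 31 small subunit genes (51.6%, interval 33.1 to 69.8%). The intervals overlap over nearly their whole length, and a difference between subunits was not tested. The plot of shares by gene list sets both beside other genes of protein synthesis.

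**Figure D1:**
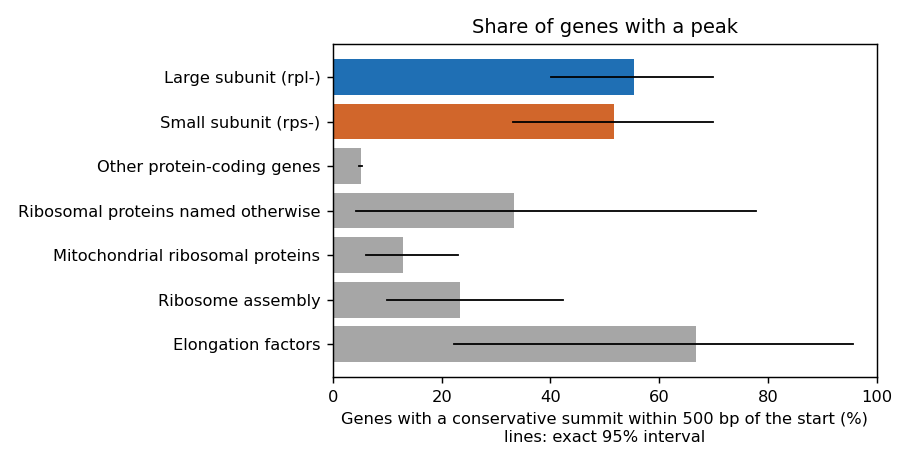
Share of genes (%, horizontal axis) with a conservative summit within 500 bp of the start, for the large and small subunit genes, other protein-coding genes and 4 comparison lists; bars are shares and lines are exact 95% intervals. Large subunit genes stand at 55.3% and small subunit genes at 51.6%, other protein-coding genes at 5.10%, and mitochondrial ribosomal protein genes at 12.9%.

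The 42 genes took part in 39 distinct peaks, since 3 peaks each served a pair of members. Where a gene had several summits the strongest was taken, and at all 42 members that summit lay upstream of the gene start, whereas 131 of the 1015 summits at other protein-coding genes lay downstream of theirs and 87.1% upstream. Weaker second summits were present at rpl-1 (18.84, 455 bp upstream), rpl-20 (109.0, 453 bp downstream) and rps-12 (15.88, 49 bp downstream). The median of the strongest member summits stood 297 bp upstream (quartiles 256.2 and 361.8, range 45 to 447 bp), against a median of 176 bp at other genes. Measured to the most upstream annotated start codon instead, the median was 306.5 bp (range 105 to 461 bp).

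Most member summits stood in a band some way from the start, and those of other genes were more often nearer. Of the 42, 17 lay 200 to 300 bp upstream (40.5%) and 14 lay 300 to 400 bp upstream (33.3%). For other genes the fullest band was 100 to 200 bp upstream with 28.2%, and 19.4% and 14.5% lay in the bands where most members did. Only 2 members, rpl-12 at 45 bp and rpl-7A at 79 bp, had a summit within 100 bp. Large subunit summits had a median of 302.5 bp and small subunit summits 271.5 bp, a gap smaller than the spread within either subunit. Worm transcripts are often trans-spliced, a reaction that replaces the original end of the RNA, so annotated starts can lie downstream of the true ones; the part of this in the distances was not tested.

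**Figure D2:**
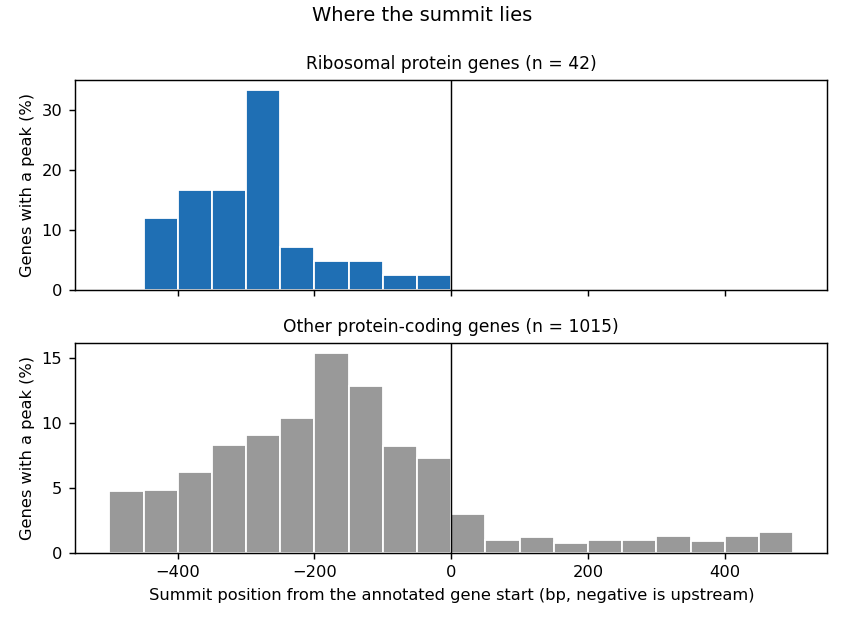
Histograms of the summit position relative to the annotated gene start (bp, horizontal axis, negative is upstream) as a percentage of genes with a peak (vertical axis), for 42 ribosomal protein genes (upper) and 1015 other protein-coding genes (lower). The strongest member summits are all upstream with a median of 297 bp, while the other genes peak nearer to the start and 131 of them lie downstream.

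By annotation 38 of the 39 member summits lay between protein-coding genes. The exception was rpl-24.2, whose summit fell in an intron of the gene C03D6.1. In 8 of the 39 the summit lay in an annotated exon of a non-coding RNA, such as F56F3.10 at rps-1 or C26F1.13 at rpl-39. The summits of other peaks were not annotated in this way, so neither count is shown to be particular to the members.

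In strength the members ranged over more than 2 orders of magnitude. Signal here is the peak caller's own value, whose scale is not stated; it ranks peaks within 1 list and cannot be read as a number of reads. The 39 member peaks had a median signal of 205.5 (quartiles 140.4 and 372.8), against 128.2 for all 2213 nuclear peaks and 146.4 for the 796 peaks near other protein-coding starts alone. Without the strongest peak the members' median was 199.6. Among the strongest 100 nuclear peaks 7 were member peaks, among the strongest 500 there were 20, and among the strongest 1000 there were 30. Over the whole list 39 of 2213 were member peaks.

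One member peak stood apart from all others. It lay on chromosome I between the start of rpl-24.1, a large subunit protein at the interface between the subunits, and that of rps-10, a protein of the small subunit, whose starts are 610 bp apart. Its signal was 14280 in the combined list, 6621 in replicate 1 and 7651 in replicate 2, and it ranked 5 among nuclear peaks. The summit was 255 bp upstream of rpl-24.1 and 355 bp upstream of rps-10, so the data do not say which of the pair it belongs to. The next member had a signal of 900.2, so the gap is larger than the whole range of the remaining 38 peaks.

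The next strongest large subunit peaks were at rpl-3, rpl-15, rpl-20, rpl-4, rpl-35 and rpl-41.2. At rpl-3, whose protein reaches toward the peptidyl transferase centre, signal was 361.2 in replicate 1 and 531.0 in replicate 2 (combined 900.2, 269 bp upstream, rank 21). For rpl-15 the replicates gave 290.7 and 406.6 (combined 698.5, 342 bp upstream), and for rpl-20 they gave 186.6 and 281.6 (combined 483.7, 299 bp upstream). Replicate 2 was the higher one at all 3. The gene rpl-4, whose protein lines part of the exit tunnel for new peptides, had 184.7 and 291.3 (combined 470.1, 295 bp upstream), and rpl-35, at the mouth of that tunnel, had 175.5 and 277.1 (combined 451.9, 445 bp upstream). A more even pair of values was seen at rpl-41.2, which encodes a very short peptide, with 192.5 and 199.1 (combined 388.2, 305 bp upstream). These peaks all lay within the strongest 142 of the nuclear list.

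Further large subunit members among the 20 strongest were rpl-7A, rpl-12, rpl-22 and rpl-5. Replicate signals at rpl-7A were 157.1 and 203.9 (combined 350.6, 79 bp upstream). In contrast rpl-12, a protein of the base of the stalk where elongation factors bind, was higher in replicate 1 with 167.7 than in replicate 2 with 136.8 (combined 310.9, 45 bp upstream). At rpl-22 the values were 113.6 and 125.0 (combined 237.2, 266 bp upstream). The replicates differed little at rpl-5 too, whose protein carries the smallest ribosomal RNA of the large subunit, with 103.4 and 114.5 (combined 212.7, 413 bp upstream).

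Small subunit genes made up 9 of the 20 strongest members, against 11 for the large subunit. The strongest after rps-10 was rps-28, with 230.5 in replicate 1 and 272.1 in replicate 2 (combined 509.9, 424 bp upstream). At rps-24 the values were 180.0 and 208.0 (combined 414.0, 373 bp upstream). Signals of 152.5 and 208.4 were found at rps-20 (combined 381.2, 234 bp upstream), and of 145.3 and 218.6 at rps-12 (combined 364.3, 166 bp upstream). Each of these 4 was again higher in replicate 2.

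The same order of replicates held at the remaining small subunit genes of that group. The gene rps-19, whose human counterpart is mutated in Diamond-Blackfan anaemia, had 159.2 and 190.7 (combined 353.2, 282 bp upstream). For rps-1 the pair was 145.2 and 173.5 (combined 317.1, 259 bp upstream). Lower signals came from rps-26, a protein at the exit of the mRNA channel, with 96.06 and 135.5 (combined 249.3, 388 bp upstream), and rps-23, a protein of the decoding centre, with 107.5 and 125.2 (combined 242.9, 257 bp upstream). Over all members with a peak the median signal was 246.1 for small and 180.1 for large subunit genes, but the lowest and highest values of both overlap, from 125.6 to 14280 and from 103.9 to 14280.

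The other members with a peak had combined signals between 103.9 and 205.5. In falling order they were rpl-36 and rps-14, which share a peak of 205.5, rpl-24.2 with 193.6, rps-0 with 174.1, rpl-11.2 with 166.7, rpl-28 with 159.8, rpl-1 with 157.4, rpl-13 with 151.6, rps-17 with 150.9 and rpl-14 with 143.2. Then came rpl-34 with 141.9, rpl-39 and rps-30 sharing 138.8, rps-21 with 132.5, rpl-7 with 129.3, rps-11 with 128.0 and rps-22 with 125.6. At the lower end stood rpl-9 with 111.7, rpl-25.2 with 108.9, rpl-6 with 107.4, rpl-17 with 105.5 and rpl-36.A with 103.9. Members whose peak was missing from the own list of either replicate all belonged to this weaker range, with signals of at most 174.1.

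**Figure D3:**
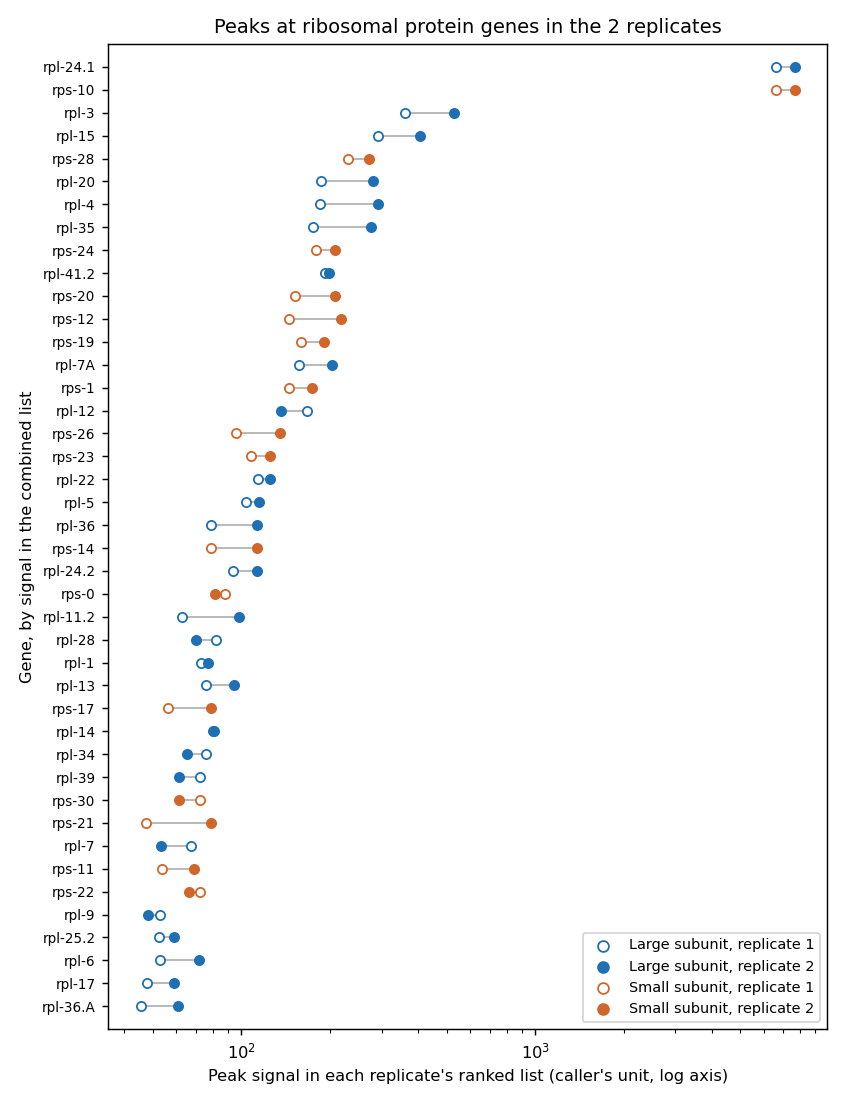
Peak signal (horizontal log axis, the caller's own unit) in replicate 1 (open) and replicate 2 (filled) at the 42 ribosomal protein genes with a conservative peak, ordered by signal in the combined list; blue is large and orange small subunit, and genes that share a peak have the same values. The rpl-24.1 and rps-10 peak at 6621 and 7651 stands far to the right, and replicate 2 is the higher one in 30 of 39 distinct peaks.

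The replicates differed by a similar factor at most member peaks. Replicate 2 was above replicate 1 in 30 of the 39 peaks, with a median ratio of 1.2 (range 0.793 to 1.67), close to the 1.185 of all nuclear peaks. In the authors' own thresholded list of replicate 2, 33 of 78 members had a peak, where the background was 3.43%. The own list of replicate 1 also gave 33 members, against a background of 2.70%. Of the 39 distinct member peaks, 26 overlapped a peak of both own lists (66.7%), compared with 30.7% of all nuclear conservative peaks. Another 3 overlapped the list of replicate 1 alone, 4 that of replicate 2 alone, and 6, with signals from 103.9 to 157.4, overlapped neither.

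How many members were counted depended on the distance allowed and on how a summit was assigned. The authors' other combined list gave 42 members (background 5.55%), of which 40 were the same genes; it gained rpl-31 and rpl-33 and lacked rpl-9 and rps-11. Using the start of any transcript gave 42 (background 5.77%), the start codon gave 42 (background 5.02%), and any overlap of the peak with the 500 bp upstream gave 42 (background 5.45%), the same genes each time. A window of 1000 bp added rpl-27, rpl-41.1 and rpl-43 for a total of 45 (background 7.20%). In each of these settings the members' count was far above the background.

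Narrower rules lowered the count. Within 200 bp only 6 members remained (background 2.61%), since the median summit lay 297 bp away. With only the strongest 500 nuclear peaks there were 22 (background 1.66%). Where a summit could count only for the nearest protein-coding start, 27 members were counted (background 4.20%): 26 through their strongest summit, and rps-12 through its weak second one, since its strongest summit was nearer to another gene. Where any annotated gene could take the summit, 18 members were counted (background 3.49%). The other 24 members with a peak thus had some other annotated start closer to the summit than their own.

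Those closer starts were described next. For 9 of the 42 members another protein-coding gene was nearest, for 11 an ncRNA and for 4 a piRNA, a gene for a germline small RNA. The kinds of closer start were not counted for other genes. When any annotated gene could take the summit, 680 of the 1015 other protein-coding genes with a peak were still counted. Among protein-coding starts alone, the own start was nearest to the strongest summit at 61.9% of members and 79.7% of other genes. At rps-1 the summit was 2 bp from the start of the ncRNA F56F3.11, and at rpl-36.A it was 3 bp from that of C09H10.11. Of the 42 members 22 had no non-coding start at all within 500 bp of the summit, a share not computed for other genes.

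Many members lay head to head with another gene, whether or not they had a peak. A protein-coding start on the opposite strand lay at most 2000 bp upstream at 51 of 78 members (65.4%) and at 27.7% of other protein-coding genes. In 30 of the 42 members with a peak the summit lay between such starts (71.4%), and at other genes with a peak in 48.9%. Of the 51 members with such a neighbour 30 had a peak (58.8%, interval 44.2 to 72.4%), and of the 27 without one 12 did (44.4%, interval 25.5 to 64.7%). Among other protein-coding genes 10.2% of those with such a neighbour had a peak and 3.16% of those without. The members' intervals overlap widely, and a dependence on the arrangement was not tested. Among the 30 are 6 members that share a peak with another member, each counted as a gene. Median signal was 224.9 at the 30 and 159.1 at the other 12.

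In 3 cases both partners were ribosomal protein genes, each time 1 of the large and 1 of the small subunit. Beside rpl-24.1 with rps-10, these were rpl-36 with rps-14, whose starts are 663 bp apart, and rpl-39 with rps-30, 499 bp apart. The peak of rpl-36 and rps-14 had signals of 79.11 and 113.3 in the replicates (combined 205.5), and its summit was 240 bp from rps-14 and 423 bp from rpl-36. For rpl-39 and rps-30 the replicates gave 72.12 and 61.38 (combined 138.8), at 275 and 224 bp. In mammals the protein of rps-30 is made as a fusion with a ubiquitin-like protein.

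Elsewhere the partner was a gene of another kind. The strongest such peaks lay between rpl-15 and K11H12.8 (814 bp apart), rpl-20 and Y17G9B.5 (462 bp), and rpl-4 and B0041.8 (461 bp). Others lay between rps-20 and ekl-4 (397 bp), and between rps-12 and ska-3, a gene for a spindle and kinetochore protein (293 bp). For rpl-41.2 the partner M04F3.5 was 1934 bp away, with rpl-41.1 between them. In the pairs with Y17G9B.5, B0041.8, ekl-4 and ska-3 the summit was nearer to the partner, by 163, 166, 163 and 127 bp from its start. One partner, mrpl-49 beside rpl-28, encodes a mitochondrial ribosomal protein and shares the signal of 159.8.

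A snoRNA start lay within 500 bp of the summit at 7 of the 42 members with a peak (16.7%), and at 2.46% of other protein-coding genes with one. By peaks, it was 6 of 39 member peaks (15.4%) and 78 of 2174 others (3.59%). The snoRNA D1007.20 was 389 bp from the summit of rpl-24.1 and rps-10, B0041.9 was 479 bp from that of rpl-4, and F54E7.10 was 246 bp from that of rps-12. The nearest of all was F39B2.14, at 130 bp, beside the rps-26 peak. Y24D9A.9 stood 361 bp from the rpl-7A summit and R151.11 stood 496 bp from the rpl-6 summit. All of these snoRNA genes except F39B2.14 lie within the bounds of the member itself, D1007.20 within rpl-24.1. The members' share above thus mostly counts snoRNA genes that the members hold. Among members that hold a snoRNA gene within their bounds 8 of 13 had a peak (61.5%, interval 31.6 to 86.1%), and among the rest 34 of 65 (52.3%, interval 39.5 to 64.9%). These intervals overlap, the first rests on 13 genes, and a difference was not tested.

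Genes with similar names often differed in signal. Beside rpl-24.1 with 14280, rpl-24.2 had 193.6 (93.83 and 113.4 in the replicates, 159 bp upstream). For rpl-11.2 the signal was 166.7 (62.66 and 98.06, 377 bp upstream), while rpl-11.1 had no conservative peak and a weak ranked region of 55.82, with no overlapping region in replicate 1 and 48.33 in replicate 2. The tandem neighbours rpl-41.2 and rpl-41.1 gave 388.2 with a peak and 32.83 without one. In the pair rpl-25.2 and rpl-25.1 the values were 108.9 with a peak 104 bp upstream (52.63 and 58.80 in the replicates) and 85.92 for a ranked region 104 bp downstream (41.10 and 50.83). So in 3 pairs 1 member had a peak and the other none.

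In the pairs named with a final A both genes had a peak, although in mammals these names stand for different proteins. At rpl-7A the signal was 350.6 and at rpl-7 it was 129.3 (67.41 and 53.43 in the replicates, 312 bp upstream). For rpl-36 it was 205.5 and for rpl-36.A 103.9 (45.52 and 60.82, 341 bp upstream). Near-identical copies can share reads, and the sources used here do not say how reads that map to several places were treated.

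The remaining 36 members had no conservative peak, yet nearly all had a weaker region in the authors' ranked list, which holds 104781 nuclear regions. A region was found for 34 of the 36, and over all members for 76 of 78; at this depth of list 63.3% of all protein-coding genes have one, so its presence says little. The strength and side differed more. The median signal of these regions was 63.91 at the 34 members and 43.39 at other genes with no peak, and 27 of the 34 lay upstream, against 51.8% for those other genes. Over all members with a region the median of the strongest one was 118.6, and over other protein-coding genes 46.04.

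**Figure D4:**
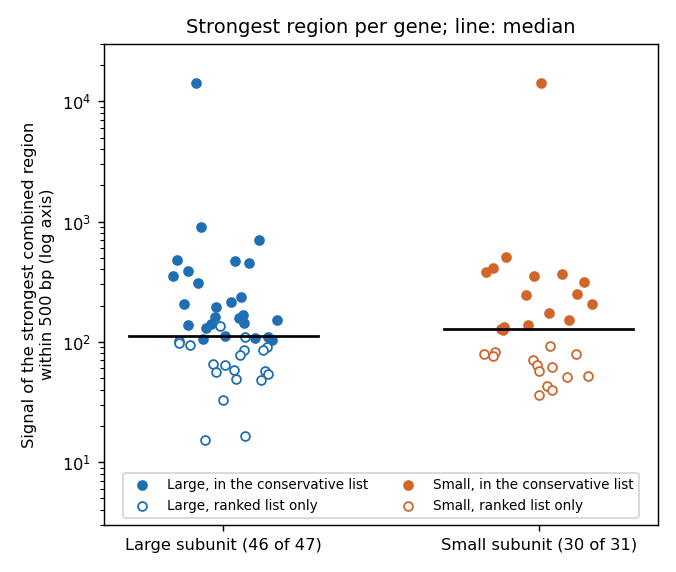
Signal (vertical log axis) of the strongest combined region within 500 bp for 46 of 47 large and 30 of 31 small subunit genes; filled points are conservative peaks, open points are regions of the ranked list only, and lines are medians. The medians, 111.2 and 126.8, lie close together, and open points reach up to 135.5, above the weakest filled points.

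By signal the strongest member without a peak was rpl-33 with 135.5, which is above 9 of the members with a peak. It had 37.02 in replicate 1 and 92.37 in replicate 2, and a reproducibility score of 735, where the conservative list starts at 830. For rpl-31 the signal was 110.7 (51.92 and 45.37, score 787), and for rpl-18 it was 100.7 (41.52 and 61.55, score 94). Next came rpl-30 with 98.01 (53.56 and 43.56), rpl-23 with 93.56 (41.27 and 57.95, score 814) and rps-13 with 92.03 (46.18 and 39.54). The list of 10 closes with rpl-32 at 89.87 (47.69 and 38.29), rpl-21 at 86.16 (27.56 and 40.34), rpl-25.1 at 85.92 and rps-16 at 82.77 (36.69 and 40.87). Nearest to the lowest conservative score was rpl-23, followed by rpl-31, so the order by score differs from that by signal. Signals of members with and without a peak overlap, between 103.9 and 135.5.

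Lower regions, from 79.91 down to 15.13, were listed at rps-9, rps-3, rpl-38, rps-4, rps-5, rpl-29, rps-29, rpl-2, rps-6, rpl-37, rps-27, rpl-42, rpl-11.1, rpl-16, rps-18, rps-8, rpl-43, rpl-26, rps-25, rps-15, rps-7, rpl-41.1, rpl-27 and rpl-10. The lowest combined signal, at rpl-10, belongs to a protein that joins the large subunit late in its assembly. Its replicate values, 35.44 and 26.6, were both above the combined 15.13. At rpl-27, with 16.6 combined, neither replicate had an overlapping region. No region at all lay within 500 bp of the starts of rps-2 and rpl-19. The gene rps-15 had a peak in the own list of replicate 1 alone.

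Other genes of protein synthesis were set beside the family as lists chosen by function. Of 6 elongation factor genes 4 had a peak (66.7%, interval 22.3 to 95.7%), and they included eef-1G with 17960, eef-1A.2 with 4569, eef-1A.1 with 223.0 and eef-2 with 137.4. In a list of 30 matched ribosome assembly genes 7 had one (23.3%, interval 9.93 to 42.3%), led by dkc-1 with 7410, nol-58 with 294.8, fib-1 with 174.9 and nsun-1 with 156.4, which modify or process ribosomal RNA. Among the 7 is lpd-7, whose peak of 111.7 is also that of rpl-9, its head-to-head partner. Both lists were above the 5.29% of all protein-coding genes.

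Mitochondrial ribosomal protein genes, whose products build the separate ribosome of that organelle, had fewer peaks than the cytoplasmic family. A peak was found at 9 of 70 (12.9%, interval 6.05 to 23%), an interval that lies wholly below that of the rpl- and rps- genes. The strongest were mrpl-39 with 192.0, mrpl-18 with 174.3, mrpl-49 with 159.8 and mrpl-45 with 158.9, and the median summit of all 9 stood 134 bp upstream. Of 6 cytoplasmic ribosomal protein genes with other names 2 had a peak, ubl-1 with 113.5 and ubq-2 with 105.5, both fusions of a ubiquitin-type domain to a ribosomal protein.

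The words capitalised above were found by counting all words of 8 bases in the 39 member windows. Those present in at least 7 were kept, with near-duplicates dropped. Words with equal member counts were taken in order of their rarity in the windows of other peaks. Their low shares in those windows are therefore partly set by the choice. The words describe the windows they were found in, and no test is given. Word A stood in 9 of 39 member windows (23.1%) and in 8 of 2174 windows of other nuclear peaks (0.368%). Word B stood in 8 (20.5%) and in 8 of the others (0.368%), word C in 8 (20.5%) and 11 (0.506%), and word D in 7 (17.9%) and 45 (2.07%). At least 1 word was present in 22 member windows (56.4%) and in 72 others (3.31%). More than 1 was present in 9 of 39 member windows and in 0 of 2174 others. In 5 of these 9 the words were A and C abutting, so 1 longer sequence was counted there as 2 words. Base composition was close, with a median GC content of 50.5% in member and 49.5% in other windows.

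The words were then lengthened base by base for as long as 5 member windows held them. Word A became the 16-base TACGGTAACACTCGTT, which takes in word C, and word B became the 16-base AACGTTGAATACTCAG. From word C came the 10-base AAACGAGTGT, in 6 member and 2 other windows with 218 genome copies, and from word D the 9-base GCGAGACCC, in 5 member and 37 other windows with 2172 copies. The 16-base words were the rarest and are described further. The one from word A was found in the windows of rpl-24.1 with rps-10, rps-23, rpl-11.2, rpl-1 and rpl-34, and in 0 of 2174 other windows. It occurs 16 times in the nuclear genome, counting both strands, and 7 of the copies lie within 500 bp upstream of a ribosomal protein gene. All 5 copies that lie in a conservative peak are among these 7, and the other 2, upstream of rps-13 and rpl-21, are at members with no peak. Presence in at least 5 member windows was required by the lengthening rule, for both 16-base words. A further 6 copies lie upstream of other protein-coding genes alone, and none of these is in a conservative peak. Among them are a copy upstream of both rpn-5 and scc-1 and another upstream of both npp-3 and top-2. The remaining 3 lie within 500 bp upstream of no protein-coding gene and in no conservative peak. These include a copy within the bounds of rpl-19, a member with no peak. Another lies more than 500 bp upstream of rps-18, also a member with no peak. That copy is past the start of the head-to-head gene sec-61.A, which is 415 bp from that of rps-18. The last, on chromosome X, lies near no member.

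The 16-base word from word B was found in the windows of rps-20, rpl-7A, rpl-13, rps-22 and the shared window of rpl-39 and rps-30, and in 1 other window. It too occurs 16 times in the genome, and 7 copies lie upstream of a ribosomal protein gene, 6 of them in a conservative peak. The copy outside a peak is upstream of rpl-32. The other 9 copies are upstream of no protein-coding gene, and 3 of those lie in a conservative peak. Over all protein-coding genes, 0.110% have the 16-base word from A and 0.0601% that from B in the 500 bp upstream, and 0.290% and 1.46% have the lengthened words C and D. A match of letters is a description of the sequence and does not show what binds there.

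Words were also present upstream of members without a peak. In the 500 bp upstream, each of the words A to D occurred at 10 of the 42 members with a peak (23.8%). At the 36 members with no peak, word A occurred at 3 (8.33%), word B at 3 (8.33%), word C at 5 (13.9%) and word D at 12 (33.3%). At other protein-coding genes the shares were 1.97%, 0.719%, 1.21% and 2.27%, and over all protein-coding genes 2.03%, 0.781%, 1.28% and 2.37%. At least 1 word occurred at 28 members with a peak (66.7%), at 17 without (47.2%) and at 5.86% of other genes. The words were chosen from the summit windows of members with a peak, which mostly lie within these 500 bp. The shares at those members are therefore partly set by the choice. Word D was no less common at members without a peak as at those with one.

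Strong peaks occurred both with and without a word. The strongest, at rpl-24.1 with rps-10 and at rpl-3, and those of rpl-20 and rpl-4 held at least 1, and those of rpl-15, rps-28, rpl-35 and rps-24 held none. Median signal was 162.1 over the 22 member windows with a word and 249.3 over the 17 without. With words of 6 bases the most shared one was ACCGTA (reverse complement TACGGT), part of word A, in 17 of 39 member windows (43.6%) and 4.23% of other windows, and it stood also in windows without word A, such as those of rpl-15, rpl-5, rpl-7 and rpl-17. It stood upstream of 52.4% of members with a peak, 38.9% of those without and 13.8% of other genes. This word too was chosen in the windows of members with a peak, so its share at them is partly set by the choice.

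**Figure D5:**
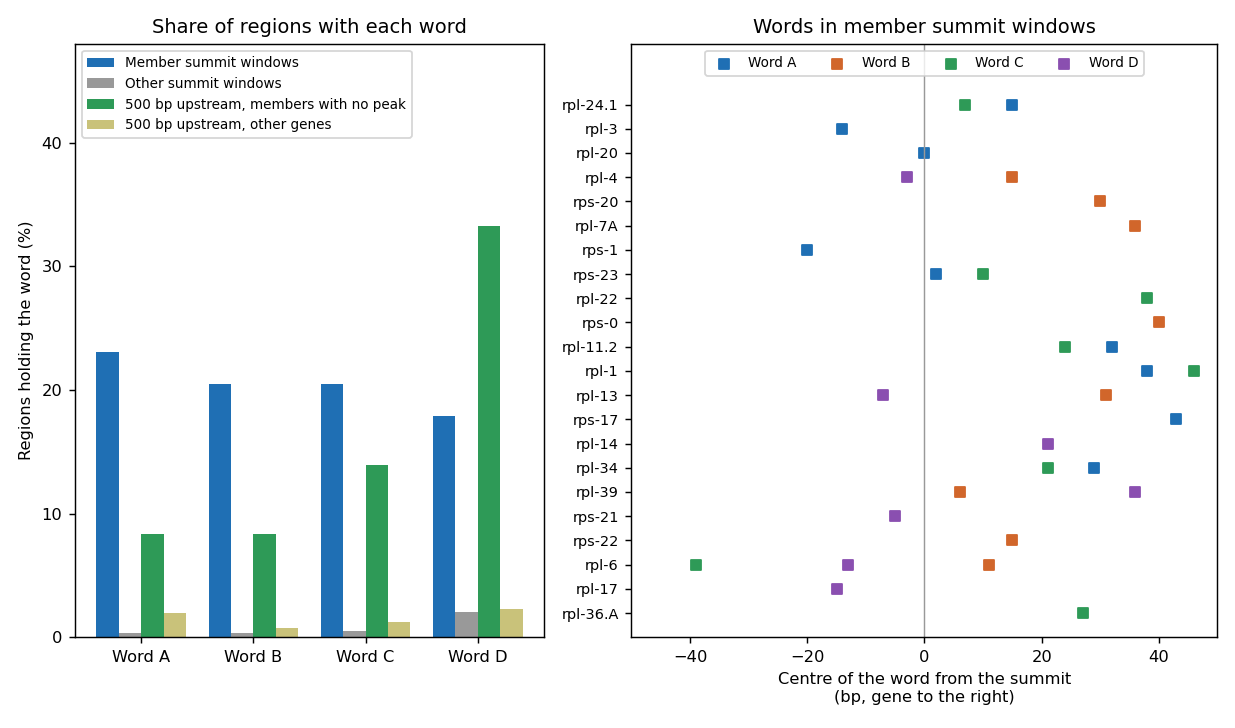
Left, percentage of regions holding words A to D in the 39 member summit windows, the 2174 other summit windows, and the 500 bp upstream of 36 members with no peak and 19895 other genes. Right, the centre of each word relative to the summit (bp, the gene to the right) in the 22 member windows that hold one; words A and C sit side by side in rpl-24.1, rps-23, rpl-11.2, rpl-1 and rpl-34, and the left bars show word D at 33.3% of members with no peak.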

How the data were processed

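Peak lists from 2 ChIP-seq replicates were used as deposited; 7 of 8 lists entered. Per the labels they are on ce11; the deposited file descriptions name IDR (irreproducible discovery rate) thresholding. No source used here names the aligner, caller or depth. One label names ztf-23 and the description anti-GFP as the antibody. The signal was deposited as the caller's own value, its scale not stated; the score, deposited by the authors, rises with reproducibility up to 1000. Replicate signals are from the strongest overlapping region of each replicate's ranked list.

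WBcel235 with gene annotation release 115 supplied starts and sequence, and every region ended within its chromosome. Genes took the strongest summit within 500 bp. Shares carry exact 95% intervals (SciPy 1.17.1, Python 3.11.15, pandas 2.3.3, NumPy 2.4.6). No test was made: there is 1 group. Only the word ranking and the calculation of summit positions were tested on simulated data.

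Members, comparison lists and settings were chosen with earlier results of these data known. Full values are given for the 20 strongest members, similarly named pairs, the 8 strongest peaks near snoRNA or divergent starts, the 10 strongest members without a peak and the 4 strongest of each comparison list. The 16-base words, the repeat count in rps-24, the shares at other genes beside snoRNA and divergent starts, and the annotation of windows were added after values were seen. Alternatives were other lists, windows, starts, assignments, distances and word settings.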

Additional observations from a re-analysis of the deposited data

How the results depend on the processing

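The count of members with a peak, 42 in the main setting, fell to 22 with the strongest 500 peaks, 6 within 200 bp, 27 by the nearest protein-coding start (rps-12 through a weaker second summit) and 18 by the nearest start of any gene. For the large subunit these settings gave 12, 4, 16 and 11 (main 26), and for the small subunit 10, 2, 11 and 7 (main 16). The median summit position was −109 bp in the 200 bp window, by its construction, and −297 bp in the main setting. A snoRNA start lay within 200 bp of the summit at 1 member (7 within 500 bp). The most shared word stood in 17 windows at 6 bases and 9 at 8 bases. With windows of 100 bp to either side it was a different word, AAAAAGAA, in 12 (30.8%). That word was also common elsewhere, in 9.15% of the windows of other peaks and upstream of 23.2% of other protein-coding genes.

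With either replicate left out, members counted 33 to 33, large subunit genes 19 to 19 and small subunit genes 14 to 14. Median position was then −290 to −283 bp. Median signal was 134.24 to 135.46, in the lists of single replicates and over the genes found there. Signal ranks peaks within 1 list only, so these values cannot be set against the combined 205.5. The list of replicate 2 lost 10 members and gained rpl-33; that of replicate 1 lost 10 and gained rps-15. No paired analysis was possible because the series holds 1 group. Signal scale, depth and a control are limits: without them a weak peak cannot be told from background here, and members below the threshold are not shown to lack ZTF-23.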

Other observations

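The members were spread over all chromosomes, and so were their peaks. On I, 15 of 23 members had one (65.2%, where 7.96% of all protein-coding genes of that chromosome did), on III 11 of 18 (61.1%, background 8.33%) and on IV 9 of 17 (52.9%, background 4.63%). On II there were 3 of 10 (background 4.90%), on V 3 of 8 (37.5%, background 3.44%) and on X, where only rpl-11.2 and rpl-25.1 lie, 1 of 2 (background 4.21%). The differences between chromosomes were not tested.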
